A study of Mus musculus with 42 samples.

Results

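The comparison of healthy aorta with healthy skeletal muscle was made on 6 of the 42 single-colour Agilent mouse arrays of the series, which are the 3 arrays labelled healthy aorta and the 3 labelled healthy skeletal muscle. The members were chosen by these labels alone, and the difference between the tissues was described across all genes. The mice were adult male C57 mice of the study's healthy control group, which were given saline by gavage. Each array held the Cy3-labelled total RNA of 1 sample, and the labels give neither which skeletal muscle was taken nor which stretch of the aorta. The 36 other arrays come from the same tissues of 6 groups on the diabetic KK/Ay strain. Of these the spontaneously diabetic group, given saline and also with 3 aortas and 3 muscles, was set beside the healthy group. The 5 others had a high-fat diet with the nitric oxide synthase inhibitor L-NAME as a model of macroangiopathy, and 4 of them were treated with SHENQI compound, yangyinyiqi, huoxue or rosiglitazone, the fifth with saline.

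The wall of the aorta is built from smooth muscle cells between elastic sheets, lined by endothelium and wrapped in loose connective tissue with fat, small vessels and nerve endings. Skeletal muscle is built from multinucleated fibres whose sarcomeres use fast or slow forms of myosin, troponin and actinin, and whose contraction is started by acetylcholine at the neuromuscular junction and by calcium released from the sarcoplasmic reticulum. Smooth muscle and skeletal muscle use related but different genes for many of the same tasks, so a comparison of healthy samples gives the normal distance between the tissues.

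Between 56.07% and 65.35% of the probes were well above the local background on the 6 arrays, and 0 probes were saturated. The library labelled healthy aorta 1 stood apart from the other aortas. Over the genes tested, 732 genes on it lay more than 4-fold from the mean of the other aortas, against 347 for aorta 2, 67 for aorta 3 and 100 to 188 for the 3 muscles. Its smooth muscle contractile genes were low, with a median level of 9.01 on the log2 scale against 11.84 and 11.18 in aortas 2 and 3 and 9.04 to 10.11 in muscle. Its lymphocyte genes were high, with a median of 11.47 against 6.42 and 8.81 in the other aortas and 6.45 to 8.0 in muscle, and the summed intensity of all 15 tested lymphocyte genes was 96400 against 1510 and 9750 in aortas 2 and 3 and 1510 to 7950 in muscle. Cd79b, a part of the B cell receptor, was at 14.91, 8.08 and 11.01 in aortas 1 to 3 and at 11.19, 7.96 and 6.82 in muscles 1 to 3, and Tagln, a smooth muscle actin-binding protein, was at 12.35, 15.53 and 14.63 and at 12.42, 11.97 and 10.72. By these markers aorta 1 resembled its label less than the other aortas did, so counts are given below with and without it. Aorta 3 carried fast fibre genes, with a median of 12.42 against 9.09 and 6.98 in aortas 1 and 2 and 15.87 to 16.87 in muscle. Muscle 1 carried epithelial keratin, with Krt8 at 11.93 against 6.15 and 6.37 in muscles 2 and 3 and 5.86 to 6.21 in aorta. These genes were picked after their values were seen, and the part of other cell types in the results below was not tested.

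**Figure D1:**
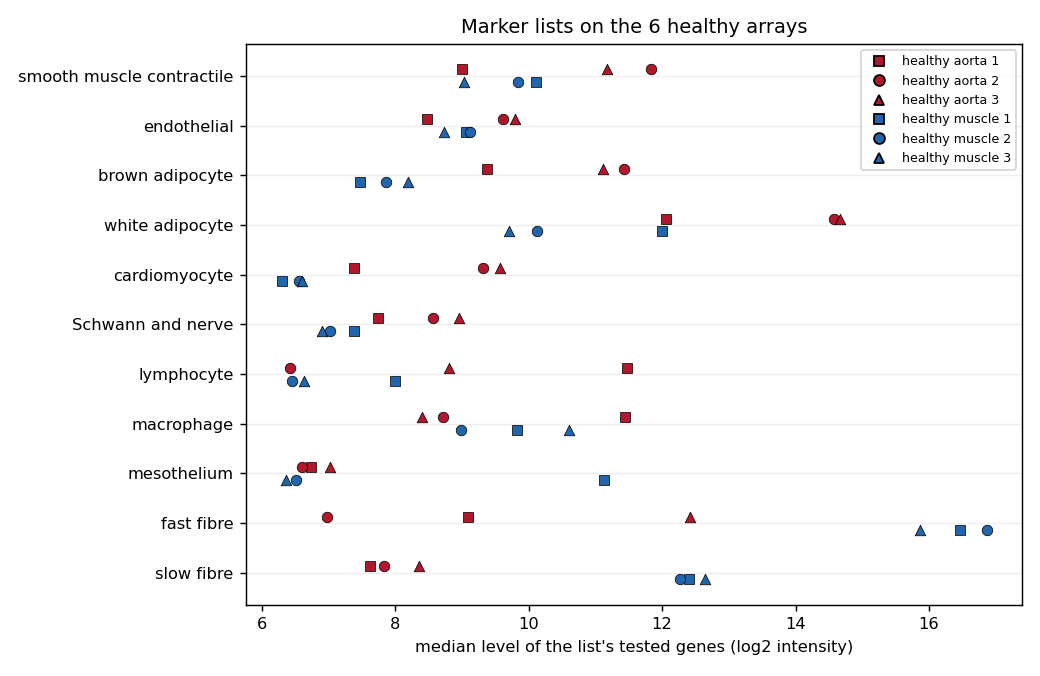
Median level (log2 intensity, horizontal axis) of the tested genes of 11 marker lists (vertical axis) on each healthy array; red symbols are aortas, blue symbols are muscles, and squares, circles and triangles are replicates 1, 2 and 3. Aorta 1 lies at 9.01 for smooth muscle genes and 11.47 for lymphocyte genes, and aorta 3 at 12.42 for fast fibre genes.

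Of 14029 genes tested, 1245 (8.87%) differed between healthy aorta and healthy muscle in limma (P value after Benjamini-Hochberg adjustment below 0.05). There were 514 genes (3.66%) higher in aorta and 731 (5.21%) higher in muscle, and the median over all tested genes was 0.02 (log2 of aorta over muscle). The arrays were normalized to a common distribution, which holds this median near 0. The 3 aortas and 3 muscles did not overlap in 4318 of the tested genes (30.8%). The called genes differed by a median of 3.34-fold where aorta was higher and 3.83-fold where muscle was higher. More than 4-fold differences were found in 210 of the genes higher in aorta and 356 of those higher in muscle. Without aorta 1 the count was 2097 (14.9%), with 1179 genes (8.4%) higher in aorta and 918 (6.54%) higher in muscle, and 1198 genes were called in both fits in the same direction. The tissue with more called genes therefore changed with that 1 library. No slide held healthy arrays of both tissues, and aorta 2 and muscle 3 were the only arrays of different tissues scanned on the same day. Within that pair Ucp1 differed by 11.95 and Tnnt1 by -7.65 (log2 of aorta over muscle), on arrays that also entered the full comparison. With scan day as a fixed term 17 genes were called, 2 higher in aorta and 15 in muscle.

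**Figure D2:**
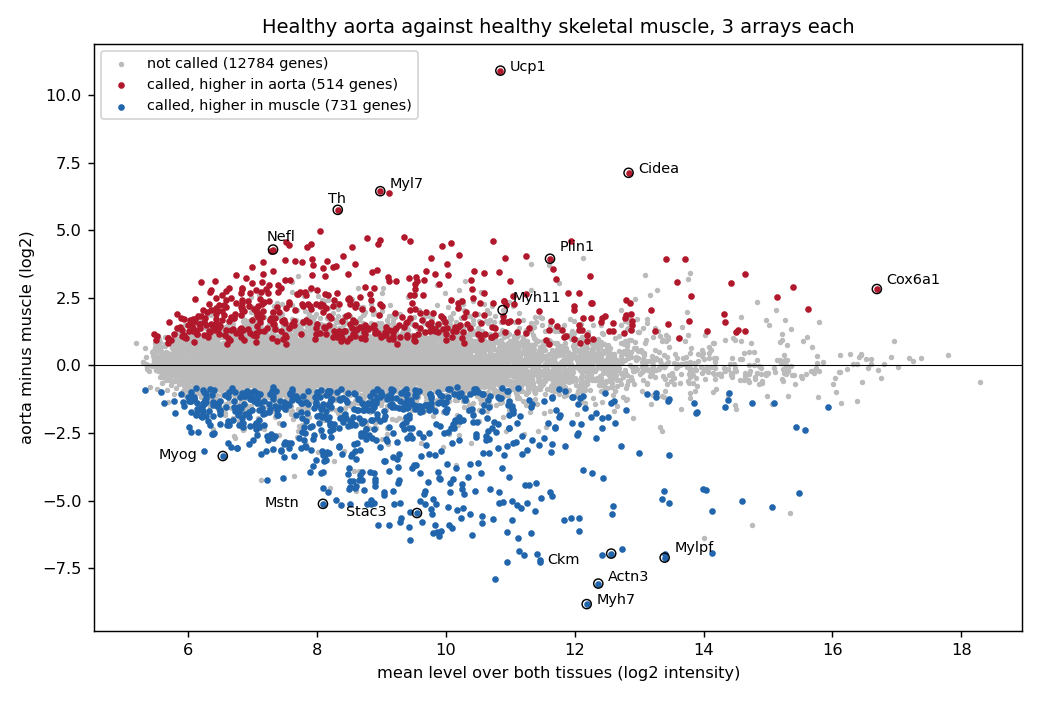
Aorta minus muscle (log2, vertical axis) against the mean level over both tissues (log2 intensity, horizontal axis) for the 14029 genes tested on 3 healthy aorta and 3 healthy muscle arrays; grey points were not called, red points were called higher in aorta and blue points higher in muscle. Ucp1 is the highest point and Myh7 the lowest, and circled genes are described in the text.

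The upstream sequences of 7 called genes are shown because they carry short motifs known as elements of transcription factors and stand for both sides of the comparison. RefSeq promoters of build GRCm38.p6 were matched by symbol to 950 of the 1245 called genes and 10922 of the 14029 tested genes, and the 250 bases before each start were searched on both strands. The capitals mark CAGCTG, the E-box form preferred by myogenic factors, in Chrna1 (chr2:73580339-73580588, minus strand), Mylpf (chr7:127211358-127211607, plus strand) and Tnni1 (chr1:135799171-135799420, plus strand), and both CAGCTG and, closer to the start, a MEF2 site in Pgam2 (chr11:5803797-5804046, minus strand).
Chrna1: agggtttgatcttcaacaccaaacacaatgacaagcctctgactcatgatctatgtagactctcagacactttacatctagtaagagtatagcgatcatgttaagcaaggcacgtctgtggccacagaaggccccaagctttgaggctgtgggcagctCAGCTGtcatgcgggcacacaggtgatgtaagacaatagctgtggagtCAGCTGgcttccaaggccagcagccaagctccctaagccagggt
Mylpf: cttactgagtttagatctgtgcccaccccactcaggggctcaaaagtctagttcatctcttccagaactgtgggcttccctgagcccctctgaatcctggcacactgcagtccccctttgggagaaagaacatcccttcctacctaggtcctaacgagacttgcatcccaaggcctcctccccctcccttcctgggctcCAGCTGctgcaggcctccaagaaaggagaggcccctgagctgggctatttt
Tnni1: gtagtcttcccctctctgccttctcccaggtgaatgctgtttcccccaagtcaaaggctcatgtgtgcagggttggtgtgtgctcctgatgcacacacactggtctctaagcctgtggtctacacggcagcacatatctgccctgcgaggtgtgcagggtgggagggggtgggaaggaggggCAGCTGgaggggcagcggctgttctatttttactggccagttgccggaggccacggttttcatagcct
Pgam2: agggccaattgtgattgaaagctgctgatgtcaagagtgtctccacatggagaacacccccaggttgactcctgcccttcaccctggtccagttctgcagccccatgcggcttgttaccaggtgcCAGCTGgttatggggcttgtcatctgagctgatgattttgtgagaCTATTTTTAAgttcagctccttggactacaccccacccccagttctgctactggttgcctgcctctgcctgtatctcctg
In the genes higher in aorta the capitals mark TGACGTCA, the cAMP response element, in Th (chr7:142899996-142900245, minus strand) and Dio2 (chr12:90739039-90739288, minus strand), and a CArG box, the element of serum response factor, in Myl7 (chr11:5898783-5899032, minus strand).
Th: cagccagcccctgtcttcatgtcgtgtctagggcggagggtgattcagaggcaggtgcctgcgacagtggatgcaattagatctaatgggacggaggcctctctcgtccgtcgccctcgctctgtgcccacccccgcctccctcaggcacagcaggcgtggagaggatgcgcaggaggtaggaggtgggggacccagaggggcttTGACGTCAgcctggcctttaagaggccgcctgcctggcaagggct
Dio2: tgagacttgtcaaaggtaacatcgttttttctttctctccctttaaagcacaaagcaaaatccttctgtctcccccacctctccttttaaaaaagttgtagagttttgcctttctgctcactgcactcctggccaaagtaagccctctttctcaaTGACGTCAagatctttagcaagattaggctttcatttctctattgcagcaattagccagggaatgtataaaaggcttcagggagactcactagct
Myl7: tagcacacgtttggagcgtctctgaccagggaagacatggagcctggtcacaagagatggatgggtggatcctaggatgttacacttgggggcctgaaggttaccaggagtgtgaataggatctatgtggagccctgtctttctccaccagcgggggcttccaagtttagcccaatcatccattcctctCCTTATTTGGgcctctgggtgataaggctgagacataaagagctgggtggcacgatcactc
CAGCTG was present upstream of 132 of 565 genes called higher in muscle (23.4%), 51 of 385 called higher in aorta (13.2%) and 14.7% of the tested genes and of all 27025 genes with a promoter. A MEF2 site was present in 6.02% of the genes higher in muscle, 0.779% of those higher in aorta, 2.23% of the tested genes and 3.42% of all genes. The CArG box was present in 2.12%, 2.6%, 1.54% and 1.62%, and TGACGTCA in 2.3%, 3.12%, 2.95% and 1.77% of the same sets. CAGCTG and the MEF2 site were thus more frequent upstream of genes higher in muscle than of tested genes, as a description with no test, and a match is a string of letters and no evidence of binding.

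Genes of the contractile fibre had the 3 widest medians among the 33 gene lists. Of 13 fast fibre genes, 10 were higher in muscle and 0 in aorta (median -6.38), of 10 slow fibre genes 7 and 0 (median -4.94), and of 28 genes of the sarcomere and Z disc 26 and 0 (median -5.23). The lists share some genes. For the list counts here and below, the shares of all tested genes were 3.66% called higher in aorta and 5.21% in muscle. Without aorta 1 these shares were 8.4% and 6.54%. Tnnt1, the troponin T of slow fibres, was at 8.20, 7.15 and 7.76 in aortas 1 to 3 and at 14.93, 14.43 and 14.80 in muscles 1 to 3, which is 129-fold higher in muscle (-7.01 ± 0.31 on the log2 scale, SE, adjusted P = 0.000692). Tnni1, the inhibitory subunit of slow troponin, was at 6.48, 5.90 and 6.25 against 12.87, 12.57 and 12.58, which is 88.2-fold (well above background on 2 of 3 aortas, adjusted P = 0.000382). Here and below, a fold of a gene not above background on every array of a tissue rests in part on signals near the background. For these slow genes the spread within each tissue was small beside the difference. Myh7, the slow myosin heavy chain, was at 9.32, 6.75 and 7.24 against 16.62, 16.50 and 16.66 (454-fold, adjusted P = 0.00161), and Myl2, a regulatory light chain of slow and cardiac fibres, was 237-fold higher in muscle (above background on 2 of 3 aortas, adjusted P = 0.00161).

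Fast fibre genes were uneven across the aortas. Mylpf, the fast regulatory light chain, was at 10.33, 6.77 and 12.42 in aorta and 17.33, 17.17 and 16.34 in muscle (138-fold, adjusted P = 0.0208). Actn3, the fast alpha-actinin of the Z disc, was at 7.46, 5.95 and 11.58 against 16.46, 16.87 and 15.87 (268-fold, adjusted P = 0.0146). Aorta 3 was the highest aorta for both genes, and aorta 2 the lowest. Myh4, the heavy chain of the fastest fibres, was at 8.83, 8.72 and 14.87 against 17.08, 17.19 and 17.29 and did not pass (83.2-fold, adjusted P = 0.0545). Atp2a1, the calcium pump of fast fibres, differed 128-fold (adjusted P = 0.0119) and Mybpc2, the fast myosin-binding protein C, 127-fold (adjusted P = 0.0222). With 1 array left out in turn, the number of fast fibre genes called was 2 to 13, lowest without muscle 2 and highest without aorta 3, while 7 slow fibre genes and 25 to 27 sarcomere genes were called each time.

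Among proteins of the Z disc and sarcomere, Myot, which cross-links actin, was 148-fold higher in muscle (above background on 2 of 3 aortas, adjusted P = 0.00939), Myoz1, an anchor of calcineurin at the Z disc, 126-fold (adjusted P = 0.0131) and Trim63, a ubiquitin ligase of muscle wasting, 153-fold (adjusted P = 0.00249). Ankrd2, a stretch-responsive ankyrin repeat protein, was at 9.11, 6.08 and 6.72 in aorta and 14.39, 13.98 and 15.41 in muscle (156-fold, adjusted P = 0.00375). All 3 muscles lay above all 3 aortas for each of these genes. For Myoz1, Trim63 and Ankrd2 this was required by a rule that named them. Over all tested genes, 30.8% had no overlap of the tissues.

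The machinery that turns a nerve impulse into calcium release was also higher in muscle. Of 20 genes of excitation-contraction coupling, 17 were higher in muscle and 0 in aorta (median -3.91). Stac3, which couples the voltage sensor to the calcium release channel, was at 6.71, 6.78 and 6.97 in aorta and 12.48, 12.53 and 11.85 in muscle (44.1-fold, adjusted P = 0.000692). The voltage sensor Cacna1s was 30.7-fold higher (adjusted P = 0.00623), the release channel Ryr1 24.8-fold (adjusted P = 0.00384), its partner triadin, Trdn, 39.7-fold (adjusted P = 0.00243), the junctional protein Jsrp1 60.4-fold (above background on 1 of 3 aortas, adjusted P = 0.0028) and the potassium channel Tmem38a of the reticulum 36.5-fold (adjusted P = 0.00265). The probes of Ryr1 did not all give the same size of difference, from -6.98 to -0.23 on the log2 scale. With 1 array left out, 15 to 17 genes of the list were called.

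At the neuromuscular junction, 6 of 9 tested genes were higher in muscle and 0 in aorta (median -1.62). Chrna1, the subunit that binds acetylcholine, was at 5.86, 6.24 and 6.11 in aorta and 9.42, 9.35 and 10.62 in muscle (13.3-fold, adjusted P = 0.00307). Rapsn, which clusters the receptor, was not well above background on any aorta and was at least 9.07-fold higher in muscle (adjusted P = 0.00271), where the bound sets the muscle mean against, on each aorta array, the higher of the gene's own signal and the lowest signal well above background. Dok7, an activator of the receptor-clustering kinase, was 7.93-fold higher (adjusted P = 0.0031) and the subunit Chrnb1 3.53-fold (adjusted P = 0.0162). The number called was 3 to 7 with 1 array left out.

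Of 16 factors of the myogenic lineage, 10 were higher in muscle and 0 in aorta (median -1.96). Myf6, the myogenic factor of mature fibres, was at 7.10, 5.27 and 7.73 in aorta and 12.76, 12.71 and 13.25 in muscle (74.1-fold, above background on 2 of 3 aortas, adjusted P = 0.00293). Myog, which drives the fusion programme, was not well above background in aorta and was at 7.76, 7.87 and 9.0 in muscle, at least 8.23-fold higher (adjusted P = 0.00384). Tbx15, a T-box factor, differed 15.3-fold (above background on 2 of 3 aortas, adjusted P = 0.00161) and Eya4, a transcriptional co-activator, 7.2-fold (adjusted P = 0.00281). Of 36 secreted growth factors and BMP genes, 1 was called. This was Mstn, the negative regulator of muscle mass, at 5.21, 5.21 and 6.16 in aorta and 10.74, 10.81 and 10.40 in muscle, at least 34.8-fold higher (adjusted P = 0.00161).

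Muscle genes not well above background on any aorta numbered 66 among the called genes. Such genes, Mstn, Rapsn and Myog included, passed the filter only through muscle. Those with the largest bounds, besides the ones named above, were Ctxn3 (at least 36.0-fold, adjusted P = 0.00499), BC048679 (25.8-fold), the transcription factor Sim2 (17.9-fold), Ostn, the myokine musclin (16.0-fold), the signalling ligand Wnt4 (9.68-fold), the inositol phosphate kinase Ip6k3 (9.03-fold) and Prkag3, the AMPK subunit of fast fibres (7.96-fold). Their adjusted P values ran from 0.00281 for Sim2 to 0.00834 for Prkag3.

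Among the smooth muscle contractile genes, only Myl6 was called higher in healthy aorta, and the count changed most when aorta 1 was left out. Of 19 contractile genes of smooth muscle, 1 was higher in aorta and 0 in muscle (median 1.03). Without aorta 1, 13 were higher in aorta (median 2.12), where 8.4% of all tested genes were. The count was 0 or 1 when any other array was left out, and 0 with the processed signal of the scanner software. Myl6, the essential light chain of smooth and non-muscle myosin, was at 16.20, 17.01 and 16.78 in aorta and 15, 14.87 and 13.89 in muscle (4.22-fold, adjusted P = 0.0187). Myh11, the smooth muscle myosin heavy chain, was at 9.15, 13.94 and 12.64 against 10.23, 10.07 and 9.26, so aorta 1 fell below the muscles and aortas 2 and 3 above them. Its adjusted P value was 0.334 with all arrays and 0.00674 without aorta 1. Cnn1, the actin-binding protein calponin, was at 10.67, 15.16 and 14.02 against 11.97, 10.23 and 8.49, with an adjusted P value of 0.208 with aorta 1 and 0.0313 without it. In whole tissue, fewer cells of a type and less RNA per cell cannot be told apart.

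Of 25 genes of vascular tone, 3 were higher in aorta and 2 in muscle (median 0.16), where 3.66% and 5.21% of all tested genes were. Without aorta 1 there were 9 and 3, and when any other array was left out 1 and 0 to 2. Tbxa2r, the thromboxane receptor, was at 8.37, 8.80 and 8.01 in aorta and 6.46, 6.44 and 6.33 in muscle (3.95-fold, adjusted P = 0.00581). Rgs2, which shortens G protein signalling, was 2.71-fold higher in aorta (adjusted P = 0.023) and the adrenergic receptor Adra1a 2.31-fold (adjusted P = 0.046). The 2 members called higher in muscle were the potassium channel gene Kcnma1 (3.23-fold, above background on 1 of 3 aortas, adjusted P = 0.0226) and Abcc9, a subunit of the ATP-sensitive channel (2.88-fold, adjusted P = 0.0288). The potassium channel Kcnk3, outside this list, was called higher in aorta. Of 22 smooth muscle and vascular factors, 3 were higher in aorta and 0 in muscle (median 0.37), and these were Gata6 (2.87-fold, adjusted P = 0.0132), Foxc2 (3.4-fold, adjusted P = 0.0469) and Hand1 (at least 3.35-fold, adjusted P = 0.0153). With 1 array left out, 0 to 6 of these factors were called.

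Endothelium lines every vessel, in muscle as in aorta. Of 27 endothelial genes tested, 0 were called in limma (median 0.39) and 2 had an unadjusted P value below 0.05, while 2 were called higher in aorta without aorta 1, where 8.4% of all genes were. In the diabetic group 20 were higher in aorta, where 23.4% of all genes were. Pecam1, an adhesion protein of endothelial junctions, was at 7.70, 8.15 and 8.44 in aorta and 7.70, 7.88 and 7.23 in muscle (adjusted P = 0.344). Macrophage and lymphocyte genes were also called in 0 of 18 and 0 of 15 cases, with 1 and 0 at an unadjusted P value below 0.05.

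Matrix genes were called about as often as all tested genes, of which 8.87% were called. Of 20 elastic fibre genes, 1 was higher in aorta and 0 in muscle, and without aorta 1 there were 4 and 0. The gene called was Ltbp2, a fibrillin-associated protein, at 10.35, 12.76 and 12.03 in aorta and 9.31, 7.73 and 8.03 in muscle (10.2-fold, adjusted P = 0.0302). Eln, the elastin gene, was at 6.96, 9.29 and 9.64 against 7.05, 7.52 and 6.80 and did not pass (adjusted P = 0.238), while it passed without aorta 1 (adjusted P = 0.00443). Among 26 collagen chains 0 were higher in aorta and 2 in muscle, Col22a1 of the muscle-tendon junction (7.58-fold, above background on 2 of 3 aortas, adjusted P = 0.0252) and Col24a1 (at least 2.27-fold, adjusted P = 0.0208). Without aorta 1 the collagen calls were 4 and 2, and without aorta 2, aorta 3, muscle 1 or muscle 2 they were 0 and 0. Among 24 proteoglycans and matricellular genes 0 and 2 were called, Thbs4, a thrombospondin of tendon and muscle (18.5-fold higher in muscle, adjusted P = 0.00219), and Cilp (7.18-fold, adjusted P = 0.00327).

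The 2 largest differences on the aorta side were in the brown fat genes Ucp1 and Cidea. Ucp1, which uncouples respiration to make heat in brown fat, was at 14.98, 17.45 and 16.47 in aortas 1 to 3, and in muscle it was at 5.39, 5.29 and 5.50, not well above background on any array. It was at least 1830-fold higher in aorta (adjusted P = 0.001), and its probe lies on mm9 at chr8:85821788-85821847. Cidea, a lipid droplet protein of brown fat, was at 14.88, 17.51 and 16.81 against 9.82, 8.32 and 9.67 (140-fold, adjusted P = 0.00318). Dio2, which activates thyroid hormone, was at 9.88, 12.61 and 12.73 against 7.48, 7.87 and 8.0 (15.5-fold, adjusted P = 0.0231), and Elovl3, a fatty acid elongase of brown fat, was 21-fold higher (above background on 1 of 3 muscles, adjusted P = 0.0438). Aorta 1 was the lowest aorta for each of these genes and still lay above every muscle. For Cidea this separation was required by a rule that named it. Ucp1 was named by a rule that took genes well above background on every aorta and on no muscle. Over all tested genes, 30.8% had no overlap of the tissues. Of 9 brown adipocyte genes 4 were higher in aorta and 1 in muscle (median 1.27), where 3.66% and 5.21% of all tested genes were. Their summed intensity was 66200, 381000 and 223000 in aortas 1 to 3 and 3710 to 5090 in muscle. The exception was Zic1, a transcription factor of the list, which was not well above background in aorta and at least 4.5-fold higher in muscle (adjusted P = 0.00196).

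Genes shared with white fat went in the same direction. Of 11 white adipocyte genes 4 were higher in aorta and 0 in muscle (median 2.54), where 3.66% and 5.21% of all tested genes were. Without aorta 1 there were 8 and 0, where 8.4% and 6.54% of all tested genes were. Plin1, the coat protein of the lipid droplet, was at 12.53, 14.07 and 14.16 in aorta and 10.34, 9.33 and 9.25 in muscle (15.4-fold, adjusted P = 0.00654). Cidec, another droplet protein, was 8.22-fold higher (adjusted P = 0.0174), the hormone-sensitive lipase Lipe 6.11-fold (adjusted P = 0.0296) and the fatty acid carrier Fabp4 5.81-fold (adjusted P = 0.0347). Adipoq, the hormone adiponectin, was at 13.46, 15.28 and 15.28 against 13.09, 11.66 and 10.92 and did not pass (adjusted P = 0.0572). Summed white adipocyte intensity was 142000, 524000 and 510000 in aortas 1 to 3 and 142000, 76000 and 66800 in muscles 1 to 3, so the list overlapped between aorta 1 and muscle 1. With 1 array left out, 1 to 8 of these genes and 3 to 6 of the brown adipocyte genes were called.

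Of 16 Schwann cell and nerve genes 7 were higher in aorta, 0 were higher in muscle and 9 were not called (median 1.48). Among all tested genes, 3.66% were called higher in aorta and 5.21% in muscle. The mean was higher in aorta for 10 of the 16, and 5 to 9 were called with 1 array left out. Th, the first enzyme of noradrenaline synthesis, was at 11.25, 10.36 and 11.97 in aorta and 5.57, 5.58 and 5.18 in muscle (54-fold, above background on 1 of 3 muscles, adjusted P = 0.00161). Dbh, the last enzyme of the same route, was at 9.27, 10.25 and 11.78 against 6.17, 6.73 and 6.18 (16.8-fold, adjusted P = 0.0103), and Slc6a2, the noradrenaline transporter, was 26.6-fold higher (adjusted P = 0.00434). All 3 aortas stood above all 3 muscles for these genes, aorta 1 included. For Slc6a2 this was required by the rule that named it, and 30.8% of all tested genes had no overlap. The neurofilament Nefl was at least 18.1-fold higher (adjusted P = 0.00384) and the intermediate filament Prph at least 13.2-fold (adjusted P = 0.00358). The summed intensity of the list was 7380, 11800 and 19600 in aortas 1 to 3 and 2670 to 3670 in muscle.

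Cardiac genes were found in the aorta samples. Of 15 cardiomyocyte genes 3 were higher in aorta and 0 in muscle (median 0.92), against 8 and 1 without aorta 1 and 0 without muscle 2. The shares of all tested genes were 3.66% and 5.21% with all arrays, and 8.4% and 6.54% without aorta 1. Myl7, the light chain of atrial myosin, was at 9.82, 13.07 and 13.73 in aorta and 5.56, 5.63 and 6.08 in muscle (87.2-fold, above background on 1 of 3 muscles, adjusted P = 0.0102). Nppa, the atrial natriuretic peptide, was at 7.51, 9.32 and 9.22 against 5.37, 5.50 and 5.93 (8.48-fold, adjusted P = 0.0143), and the cardiac troponin Tnni3 was 12.6-fold higher (adjusted P = 0.037). The arrays of the tissues did not overlap for these genes, as for 30.8% of all tested genes. Summed over the list, which also holds genes that skeletal muscle uses, intensity was 4120, 37300 and 39900 in aortas 1 to 3 and 18500, 14100 and 8870 in muscles 1 to 3.

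**Figure D3:**
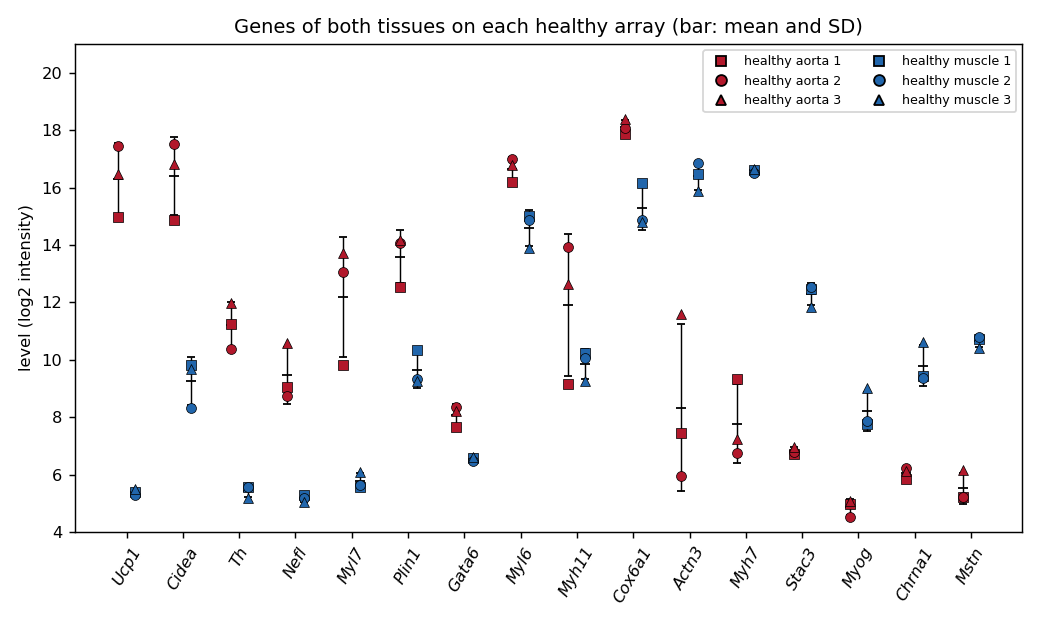
Level (log2 intensity, vertical axis) of 16 genes (horizontal axis) on each of 3 healthy aorta (red) and 3 healthy muscle (blue) arrays; squares, circles and triangles are replicates 1, 2 and 3, and bars are the mean and SD. Ucp1 to Gata6 show no overlap, while Myh11 does because aorta 1 is at 9.15.

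Genes of energy metabolism were called in both directions. Of 30 genes of glycolysis and glycogen, 4 were higher in aorta and 10 in muscle (median -0.43), and of 12 genes of energy buffering 1 and 7 (median -3.08). The shares of all tested genes were 3.66% and 5.21%. Ckm, the creatine kinase of muscle, was at 7.95, 7.56 and 11.74 in aorta and 16.13, 16.65 and 15.35 in muscle (124-fold, adjusted P = 0.0123). Its widespread form Ckb was at 9.83, 10.90 and 10.93 against 8.92, 9.05 and 7.91 (3.8-fold higher in aorta, adjusted P = 0.0403). Ampd1, the AMP deaminase of muscle, was 70.2-fold higher in muscle (above background on 2 of 3 aortas, adjusted P = 0.0181), the mitochondrial creatine kinase Ckmt2 33.7-fold (adjusted P = 0.00375) and Adssl1, which remakes AMP, 25-fold (adjusted P = 0.00211). Pygl, the liver form of glycogen phosphorylase, was 9.81-fold higher in aorta (adjusted P = 0.0344) and Pfkl, the liver form of phosphofructokinase, 8.98-fold (adjusted P = 0.036). Without muscle 2, the calls were 1 higher in aorta and 3 in muscle for glycolysis and glycogen and 0 and 3 for energy buffering.

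Genes of fat burning and the respiratory chain were called less often. Of 22 genes of fatty acid oxidation, 4 were higher in aorta and 0 in muscle (median 1.10), with Hadhb (3.8-fold, adjusted P = 0.0324) and Acadm (3.06-fold, adjusted P = 0.0493), both enzymes of beta oxidation, among them. These calls were marginal, since 15 were called without aorta 1 and 0 when any other array was left out or with the processed signal. The share of all tested genes called higher in aorta was 3.66%, and 8.4% without aorta 1. Of 80 oxidative phosphorylation genes 2 were higher in aorta and 3 in muscle (median -0.02). Atp5g1, a ring subunit of ATP synthase, was 10-fold higher in muscle (adjusted P = 0.00222). Of 20 antioxidant genes 2 were higher in aorta, Gpx1 (2.49-fold, adjusted P = 0.0133) and Sod2 (2.35-fold, adjusted P = 0.0472), and 1 in muscle, Nqo1 (3.64-fold, adjusted P = 0.00601). Without aorta 1 the calls were 7 and 1 for antioxidant genes and 6 and 3 for oxidative phosphorylation. With the processed signal, or without aorta 3, muscle 1 or muscle 2, they were 0 and 1 for antioxidant genes.

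Related genes were compared in 22 pairs, each with a form set as vascular or common and a form set as striated. The division is loose. Atp2a2 and Casq2, set as common, are also in the slow fibre list, and Ryr2 is in the cardiomyocyte list. Of the lactate dehydrogenases, Ldha was set as the striated form. The common form was higher in aorta in 6 of 21 tested pairs and the striated form was higher in muscle in 16 of 22, with 0 calls in the opposite direction. In 5 pairs both genes were called and went apart. Pgam1, a widespread phosphoglycerate mutase, was at 14.77, 15.34 and 15.29 in aorta and 12.39, 11.42 and 12.34 in muscle (8.46-fold higher in aorta, adjusted P = 0.00342), while Pgam2 was at 8.16, 9.64 and 11.67 against 15.42, 16.06 and 14.51 (45.5-fold higher in muscle, adjusted P = 0.0132). Cox6a1, the common form of a cytochrome oxidase subunit, was 7.09-fold higher in aorta (adjusted P = 0.00834) and Cox6a2, its striated form, 26-fold higher in muscle (adjusted P = 0.00315). The ADP/ATP carriers Slc25a5 and Slc25a4 differed 3.14-fold and 5.29-fold in the same way, and the other pairs were Pfkp with Pfkm and Ckb with Ckm. Eef1a2, the elongation factor of muscle and nerve, was 18-fold higher in muscle (adjusted P = 0.00301), whereas Eef1a1 did not pass (0.96 ± 0.31 on the log2 scale, SE, adjusted P = 0.11). Without aorta 1, 14 common forms and 16 striated forms were called and 11 pairs went apart. Acta2, the smooth muscle actin, had 5 probes that differed in direction, from -2.06 to 2.47, so its gene value is uncertain.

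**Figure D4:**
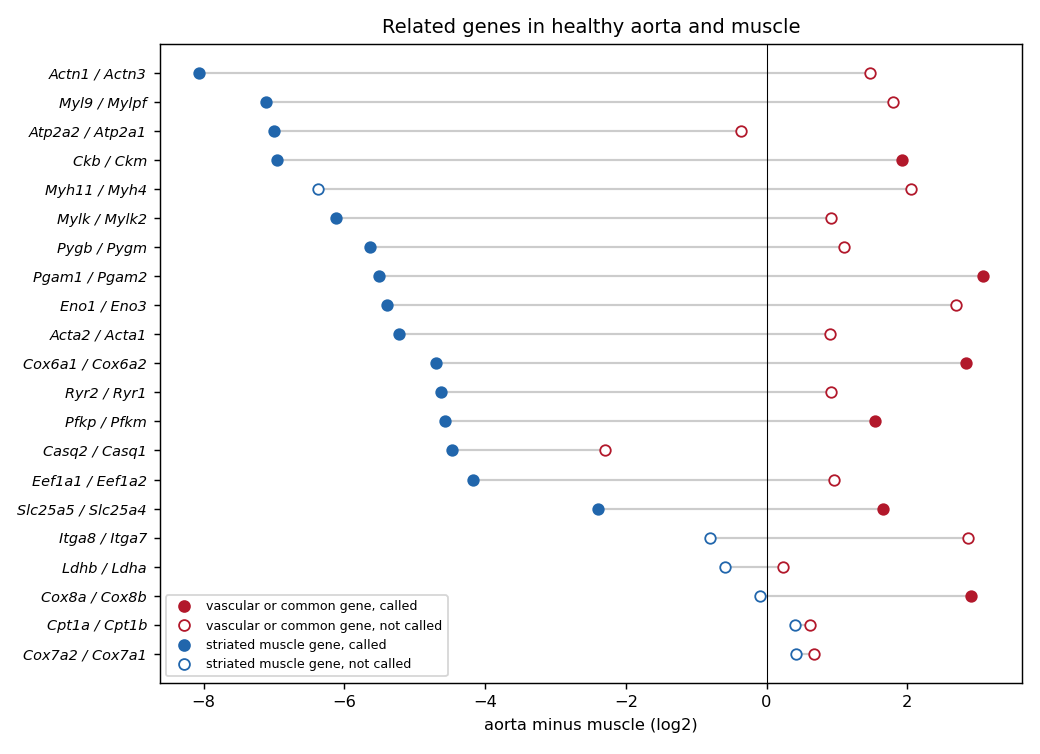
Aorta minus muscle (log2, horizontal axis) for the 21 pairs of related genes in which both were tested (vertical axis, common form first); red circles are the vascular or common gene, blue circles the striated muscle gene, and filled circles were called. Most blue circles lie far to the left, and in 5 pairs a filled red circle lies right of 0 and a filled blue circle left of it.

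Developmental and housekeeping lists were also described. Of 25 Hox genes, which record position along the body axis, 1 was higher in aorta and 6 in muscle (median 0.26). Hoxb4 was at 7.24, 7.67 and 7.78 in aorta and 6.28, 6.70 and 6.37 in muscle (2.16-fold higher in aorta, adjusted P = 0.0344). On the muscle side were Hoxc10, at 6.03, 5.87 and 6.28 against 7.74, 8.51 and 8.58 (4.64-fold, adjusted P = 0.00622), Hoxa11 (at least 4.65-fold, adjusted P = 0.0142), Hoxc9 (3.83-fold, adjusted P = 0.017) and Hoxa10 (3.48-fold, adjusted P = 0.00543). Without aorta 1 the Hox calls were 6 in each direction, where 8.4% of all tested genes were higher in aorta and 6.54% in muscle. Without muscle 2 the Hox calls were 0 and 2. Of 17 clock genes 0 and 2 were called, among them the nuclear receptor Rora (4.94-fold higher in muscle, adjusted P = 0.00755). Of 16 reference genes 1 was higher in aorta, Ppia (3.06-fold, adjusted P = 0.0403), and 2 in muscle, Eef1a2 above and Gapdh (2.89-fold, adjusted P = 0.0483). With the processed signal, the authors' table or any 1 array left out, 0 reference genes were called higher in aorta. The calls higher in muscle were then 2 without aorta 1 and 1 in each other case. Of 80 ribosomal protein genes 0 and 1 were called, and the latter was Rpl3l, the form of striated muscle (77.8-fold, adjusted P = 0.00271). The mesothelium, cartilage and bone, red cell and immediate early lists held 0 called genes of 5, 4, 5 and 18, and 0, 2, 4 and 1 at an unadjusted P value below 0.05. An unadjusted P value below 0.05 in limma was found in 3472 of all 14029 tested genes. Without aorta 1, 4 of 5 red cell genes were called higher in aorta, where 8.4% of all tested genes were. In diabetic mice 5 of 5 were, against 23.4% of all tested genes. Over all 33 lists 156 of 708 tested members were called, 41 higher in aorta and 115 in muscle, against 8.87% of all tested genes, 3.66% higher in aorta and 5.21% in muscle.

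A ranking was made of called genes that were well above background on all 6 arrays and had no overlap of the tissues. In it, the largest differences on the aorta side after Cidea were Aspg, an asparaginase (27.1-fold, adjusted P = 0.0156), and Slc6a2 above. They were followed by Kcnk3, an acid-sensitive potassium channel (25.3-fold, adjusted P = 0.0061), and Prkar2b, a regulatory subunit of the cAMP-dependent kinase (24.5-fold, adjusted P = 0.013). Kcnk3 was at 9.84, 12.14 and 11.93 in aorta and 6.81, 6.46 and 6.65 in muscle. Next came Clstn3 (24.3-fold, adjusted P = 0.043), Gys2, the liver form of glycogen synthase (24.1-fold, adjusted P = 0.0154), Agpat2, an enzyme of triglyceride synthesis (23.1-fold, adjusted P = 0.0082), Zcchc18 (22.8-fold, adjusted P = 0.00664) and Acsm3, an acyl-CoA synthetase (21.6-fold, adjusted P = 0.00161). Among the called genes 90 were well above background on all 3 aortas and on 0 muscles, and such genes passed the filter only through aorta. Besides the ones named above, they include Stmn3 (at least 22.7-fold), Bex2 (20.8-fold), Celf6 (15.1-fold), Slc10a4 (11.8-fold), Cplx1 (11.4-fold) and Rit2 (8.97-fold), with adjusted P values from 0.00214 for Stmn3 to 0.00387 for Cplx1 and Rit2.

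The same tissue difference was then read in the spontaneously diabetic group, which also differs from the healthy group in strain. Of 14329 genes tested there, 6641 (46.3%) were called, 3347 (23.4%) higher in aorta and 3294 (23%) in muscle, and the median SD of a gene was 0.22 in diabetic aorta and 0.11 in diabetic muscle against 0.35 and 0.27 in healthy mice. Over the 14029 genes tested in healthy mice, 1150 of the 1245 healthy calls were called the same way in diabetic mice, which is 92.4% of the healthy calls and 17.8% of the diabetic ones, and 1 was called the opposite way. The healthy calls had a median difference of 1.62 and -1.82 in diabetic mice against 1.74 and -1.94 in the healthy mice that chose them. In the 5 other KK/Ay groups, between 1012 and 1156 of the healthy calls were called the same way. The lowest number was in the SHENQI compound group, where 34% of the genes were called, and the highest in the macroangiopathy group, where 58.3% were. Smooth muscle contractile genes were called in 16 of 19 cases in diabetic aorta, and oxidative phosphorylation genes in 4 cases higher in aorta and 38 higher in muscle.

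The difference between the healthy and the diabetic tissue contrast was called in 11 of 14700 genes (0.0748%), 5 (0.034%) with aorta minus muscle larger in healthy mice and 6 (0.0408%) with it smaller, and in 1043 at an unadjusted P value below 0.05. Cdh15, the cadherin of myogenic cells, was at 6.45, 6.13 and 6.74 in healthy aorta and 10.20, 10.81 and 12.07 in healthy muscle, but at 8.24, 8.53 and 8.81 in diabetic aorta and 8.94, 8.79 and 8.91 in diabetic muscle (difference of the contrasts -4.24 ± 0.54, SE, adjusted P = 0.0458). Arrdc2, an arrestin-domain protein, was 10.9-fold higher in muscle in healthy mice and 1.93-fold in diabetic mice (adjusted P of the difference 0.0096). Psph, the last enzyme of serine synthesis, was 2.59-fold higher in aorta in healthy mice and 1.49-fold higher in muscle in diabetic mice (adjusted P of the difference 0.0462). The count was 56 without healthy aorta 1 and 0 to 4 without any 1 of the other 11 arrays.

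**Figure D5:**
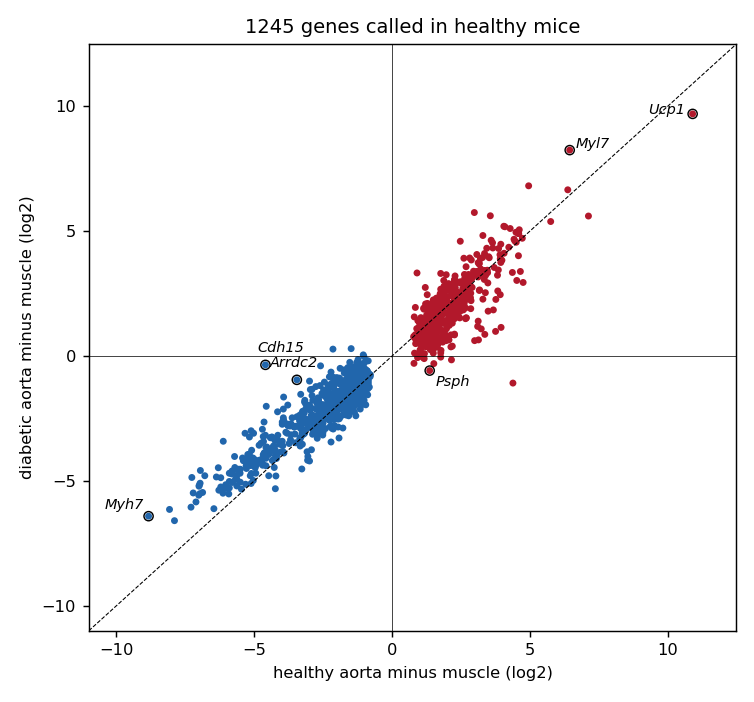
Aorta minus muscle (log2) in diabetic mice (vertical axis) against healthy mice (horizontal axis) for the 1245 genes called in healthy mice, red where aorta was higher and blue where muscle was higher in healthy mice; the dashed line marks equal differences. Most points lie near the line, while Cdh15 is at -0.35 and Arrdc2 at -0.95 in diabetic mice.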

How the data were processed

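The authors hybridized each sample's total RNA, amplified and labelled with Cy3, to an Agilent mouse 4x44k array and read it with Feature Extraction 10.7. The deposited files give the intensity of each spot and of its local background, and the deposited value table of the authors holds log2 values, used as an alternative. Intensities were corrected with normexp (offset 0), control spots left out, arrays quantile normalized over all 42 and put on the log2 scale. Irregular spots were masked, and spots and then probes of a gene symbol were averaged. A gene entered a comparison when each of the 3 samples of a tissue and group had at least 1 of its probes marked well above background by Feature Extraction. The probe could differ between samples. The test was lmFit and eBayes of limma 3.58.1 (R 4.3.3) with Benjamini-Hochberg adjustment over all genes, without a replicate block. The study describes muscle and aorta of 3 mice a group, so both tissues may come from the same mice. The labels do not say which samples share a mouse, and the samples were treated as independent. P values measure the spread between 3 samples a group. Groups came from the labels. The fit was tested on simulated data.

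The genes named were, in each direction, the 10 largest differences and the 10 largest bounds of called genes. The differences were ranked among called genes above background on all arrays and without overlap of the tissues. Also named were up to 4 called members of each list and those against its majority, all pairs, and the 5 largest called differences between groups. Results for 2 genes of this rule are not reported here. Genes outside it were chosen after their values were seen. Members, lists and pairs were chosen with earlier results of these data known. Alternatives were other background corrections, the processed signal at a common 75th percentile, the authors' table, other filters, normalizations, probe summaries and fits, slide, scan day and replicate blocks, and each array left out. Leaving arrays out of the list counts was added after the data were seen. Tables and figures were made with Python 3.11.15, pandas 2.3.3, numpy 2.4.6 and matplotlib 3.10.9.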

Additional observations from a re-analysis of the deposited data

Results flagged for a closer look

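The tissue difference of 11 genes differed between healthy and diabetic mice by the interaction term in limma, at adjusted P values from 0.0096 to 0.0469. The healthy minus the diabetic difference between aorta and muscle was -4.24 (log2) for Cdh15, -2.50 for Arrdc2, -2.36 for Gdf5, a growth factor of joints, -1.83 for Selenbp1, -1.74 for Lypd1 and -1.53 for Arsj. It was 3.01 for Ropn1l, 2.85 for Katnal2, 1.95 for Psph, 1.71 for Klra21 and 1.51 for Tsga10ip. Gdf5 was at 6.46 to 6.71 in healthy aorta and 8.48 to 9.02 in diabetic aorta, and at 6.26 to 6.91 in the muscles of both groups. Lypd1 was not well above background on any healthy array and was at 6.56 to 7.10 in diabetic aorta. The groups differ in strain as well as in diabetes, which cannot be told apart here.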

How the results depend on the processing

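Of 1245 genes called between the healthy tissues, the count was 751 with replicate number as a block, 4839 in a fit of all 42 arrays, 17 with scan day as a fixed block and 273 within the 4 arrays whose files hold all columns. It was 468 to 2097 with 1 array left out (2097, 762 and 552 without aortas 1, 2 and 3, and 608, 468 and 701 without muscles 1, 2 and 3). The members of the lists called were 156, and 93 to 246 with 1 array left out, highest without aorta 1. The 11 differences between healthy and diabetic mice were 3 with the processed signal at a common 75th percentile, 7 with the authors' table, 2 without a filter, 2 with a replicate block, and 0 to 56 with 1 array left out, highest without healthy aorta 1 and 0 in limma without healthy aorta 3, diabetic aorta 2 or diabetic muscle 2 or 3. The deviations of same-numbered samples from their tissue means correlated at 0.144, 0.214 and -0.356. Those of samples with different numbers correlated at -0.348 to 0.346. With so few samples this cannot decide whether the numbers mark the same mouse, and they were not taken as pairs. The other alternatives left these counts, and all alternatives the diabetic count, within 1.5 times. Of 3341 values for 162 named results, 2646 kept their direction and side of the threshold, 636 lost and 46 gained a call, and 13 changed sign, all in genes not called: Acta2 was -0.10, Cpt1b -0.24, Cox7a1 -0.26 and Ldhb -0.27 within the full-column arrays, with 1 array left out Atp2a2 ran from -0.59 to 0.01 (without aorta 1), Cox7a1 from -0.16 (without muscle 3) to 0.89, Cox8b from -0.53 to 0.37 (without aorta 1), with 0.12 without muscle 2, and Ldhb from -0.15 (without muscle 3) to 0.58, Cox8b was 0.39 and Ldha 0.44 with scan day, Cox8b 0.04 with the authors' table and Ldhb -0.01 at the 75th percentile. Single causes were not tested. The number of arrays limits the precision.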
